A study of Danio rerio with 6 samples.

Results

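The genes gpnmb, fhl2a, fhl2b, akap12a, mpv17, cdh11 and tjp1a encode proteins that build, anchor or connect the zebrafish iridophore, or are known as markers of this cell or from mutants whose iridophores are abnormal. They were chosen by name, and all 7 were found among the 11016 gene symbols of the count table. Iridophores are the pigment cells of fish that reflect light from stacks of purine crystals. The libraries came from Danio rerio larvae at 5 days post fertilization that carried the transgene Tg(pnp4a:PALM-mCherry) and had the genotype label WT. In these larvae the promoter of pnp4a, a purine metabolism gene, drives a membrane-bound red fluorescent protein in iridophores. About 20000 cells per library were sorted, either iridophores or, as the control, cells of the general population, with 3 biological replicates of each. Both groups came from dissociated transgenic larvae, and the labels say neither how many larvae each replicate pooled nor whether the control sort excluded cells with the reporter.

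Iridophores arise from the neural crest, like melanophores and xanthophores, and take on different shapes in the reflective stripes of the body and in the eye. LIM-domain and kinase-anchoring scaffolds link signalling enzymes to the cytoskeleton and membrane, cadherins and tight junction scaffolds hold neighbouring cells together, and inner-membrane proteins such as Mpv17 maintain mitochondria. Loss of mpv17 in zebrafish removes most iridophores, and loss of tjp1a changes their shape and with it the stripe pattern.

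Libraries held 616439 to 1686552 counts in iridophores and 1612637 to 3282480 in the control. A count of 3, taken as the floor of detection, equalled 1.69 to 5.50 CPM (counts scaled to a common total, here on library sizes adjusted by trimmed mean of M values) in iridophores and 0.897 to 1.79 CPM in the control. These floors and the Poisson intervals given below cover counting error only. The reporter gene pnp4a stood at 1801, 2708 and 2710 CPM in iridophore replicates 1, 2 and 3 and at 9.27, 17.3 and 20.5 CPM in the control, so its control level was 0.652% of its iridophore level. The library names of replicate 1 of both groups share an ending that differs from that of replicates 2 and 3.

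Of the 7 genes, 6 were higher in iridophores and 0 were lower, at an adjusted p under 0.05 in edgeR's quasi-likelihood test over 6849 genes, with the same counts by DESeq2, by limma-voom and at an unadjusted p under 0.05. The gene that was not called was tjp1a. Over all tested genes 22.1% were called higher and 17.8% lower, together 39.9%. With upper-quartile scaling the balance turned, from 1513 higher and 1217 lower to 1315 higher and 1514 lower. The same 6 genes had CPM values above the control in every iridophore library, a pattern found in 27% of tested genes, while 24.9% had every iridophore library under the control. The median log2 fold change of the 7 genes was 4.45, beside 0.01 over all tested genes. Because the genes were picked as iridophore genes, their direction was part of what they were picked for. In sorted bulk samples, a difference in the share of cells that express a gene and a difference in RNA per cell cannot be told apart.

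**Figure D1:**
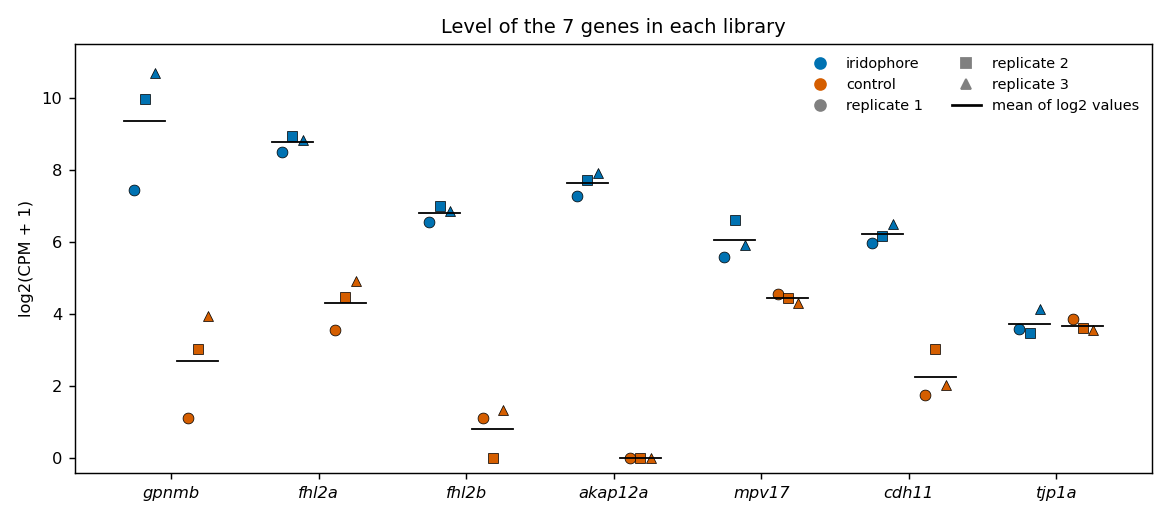
Level of each of the 7 genes in the 3 iridophore and 3 control libraries, as log2(CPM + 1) on the vertical axis, where each point is a library and the bars are means of the log2 values. The points of the groups are apart for 6 genes and overlap for tjp1a, and gpnmb spreads most within a group.

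The scaffold gene akap12a was found in every iridophore library and in 0 control libraries. It encodes an A-kinase anchoring protein, known in mammals as gravin, that holds protein kinase A and protein kinase C near the plasma membrane. Its counts were 85, 146 and 425 in iridophore replicates 1, 2 and 3, or 156, 212 and 239 CPM, against 0 counts in each control library. The groups did not overlap. The control, at the floor of 3 counts per library, allows only a bound: akap12a was at least 144-fold higher in iridophores (202 ± 42.5 CPM, SD, n = 3; adjusted p by edgeR 4.435e-06). A 95% Poisson interval on the 0 counts reached up to 1.103, 2.20 and 1.89 CPM in control replicates 1, 2 and 3.

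Its paralog akap12b was detected in both groups. The counts of akap12b were 4, 11 and 37 in iridophores and 3, 6 and 3 in the control, and it rose by a log2 fold change of 3.11 (SE 0.55, adjusted p by edgeR 0.001665). Within a library, the log2 ratio of akap12a to akap12b counts was 4.25, 3.67 and 3.50 in iridophores and -2.81, -3.70 and -2.81 in the control. The ratio was positive in 3 of 3 iridophore libraries and negative in 3 of 3 control libraries, with means that differed by 6.91 (two-sided exact permutation p 0.1, the smallest that 3 against 3 allows, and 0.133 after Benjamini-Hochberg adjustment over 4 paralog pairs). Since akap12a had 0 counts in the control, this difference depends on the offset of 0.5 added to each count, and with an offset of 1 it was 6.004.

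Other A-kinase anchoring genes moved both ways. Of the 6 tested besides akap12a, 2 were higher and 2 were lower, with a median log2 fold change of -0.17. Calls in both directions were common among all tested genes, at 22.1% higher and 17.8% lower. Besides akap12b, the higher one was akap10 (2.60, SE 0.57, adjusted p by edgeR 0.00525), which rested on 5 to 16 counts per iridophore library and 2 to 5 per control library. The lower ones were akap1b, whose product anchors the kinase at mitochondria in mammals (-1.41, SE 0.30, adjusted p by edgeR 0.004275), and akap9, a centrosome and Golgi anchor (-1.04, SE 0.30, adjusted p by edgeR 0.02101). The kinase itself was also uneven among its subunits. Of 5 tested protein kinase A genes, the regulatory subunit prkar1aa rose from 14.8 ± 3.43 to 81.9 ± 38.8 CPM (log2 fold change 2.53, SE 0.37, adjusted p by edgeR 0.0005692) and the catalytic subunit prkacbb rose by 1.38 (SE 0.27, adjusted p by edgeR 0.003121). The regulatory subunit prkar2aa fell by 1.13 on the log2 scale (SE 0.26, adjusted p by edgeR 0.007532), and the other two, prkacaa and prkacab, were not called.

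The LIM-domain genes fhl2a and fhl2b both rose. Fhl2 proteins are adaptors made of LIM domains that bind integrins, actin-associated proteins and transcription factors, and in mammals FHL2 is best known from the heart. In iridophore replicates 1, 2 and 3, fhl2a stood at 363, 494 and 459 CPM, and in the control at 10.8, 21.4 and 29.2 CPM. Every iridophore library was above every control library, and control replicate 1 was the lowest of all. The log2 fold change was 4.45 (SE 0.36, adjusted p by edgeR 1.331e-05), with 439 ± 67.9 CPM in iridophores against 20.5 ± 9.26 CPM in the control (SD, n = 3), so the control level was 4.67% of the iridophore level.

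For fhl2b the iridophore libraries had 93.4, 126 and 116 CPM. The control libraries had 4, 0 and 3 counts, of which only replicate 1 was above the floor. The log2 fold change was 6.72 (SE 0.43, adjusted p by edgeR 4.435e-06), and the control level was 0.813% of the iridophore level. In the iridophore libraries the paralogs kept nearly the same proportion to each other, with log2 ratios of fhl2a to fhl2b of 1.95, 1.96 and 1.98. In the control the ratios were 3.02, 6.19 and 4.04, all above the iridophore values. The mean ratio differed by -2.45 between the groups (iridophore minus control, exact permutation p 0.1, adjusted 0.133), and by -1.57 without control replicate 2 and -3.15 without control replicate 1. With so few fhl2b counts in the control, the size of the ratio there is poorly determined.

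The related genes fhl1b and fhl3b did not pass the test. For fhl1b the levels were 23.7 ± 4.83 CPM in iridophores against 26.2 ± 3.65 CPM in the control, with a log2 fold change of -0.13 (SE 0.27, 95% interval -0.73 to 0.47, adjusted p by edgeR 0.7306). For fhl3b the log2 fold change was -1.12 (SE 0.69, 95% interval -2.67 to 0.42, adjusted p by edgeR 0.2265), on 0 to 6 counts per iridophore library. Markers of skeletal and heart muscle, tissues that also express Fhl genes, were summed beside them. The 11 analysed of 15 listed genes added up to 2466 to 3312 CPM in iridophores and 1714 to 2126 CPM in the control. Of these 11, 4 were called higher and 0 lower by edgeR, by DESeq2 and at an unadjusted p under 0.05. Over all tested genes 22.1% were called higher and 17.8% lower. The 4 muscle genes called higher are all skeletal or general striated muscle genes (ttn.1, tnnt3a, tnnt3b and acta1b). The heart genes myl7, nppa, tnnt2a, tnni1b and cmlc1 had log2 fold changes of -0.19, -0.24, -0.63, -0.78 and -0.91 (adjusted p by edgeR 0.256 to 0.7371). The actin genes actc1a and acta1a, the latter a skeletal muscle gene like acta1b, had 0.29 and -0.27 (adjusted p by edgeR 0.5565 and 0.5536). The part of muscle RNA in the fhl2a and fhl2b values was not tested.

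**Figure D2:**
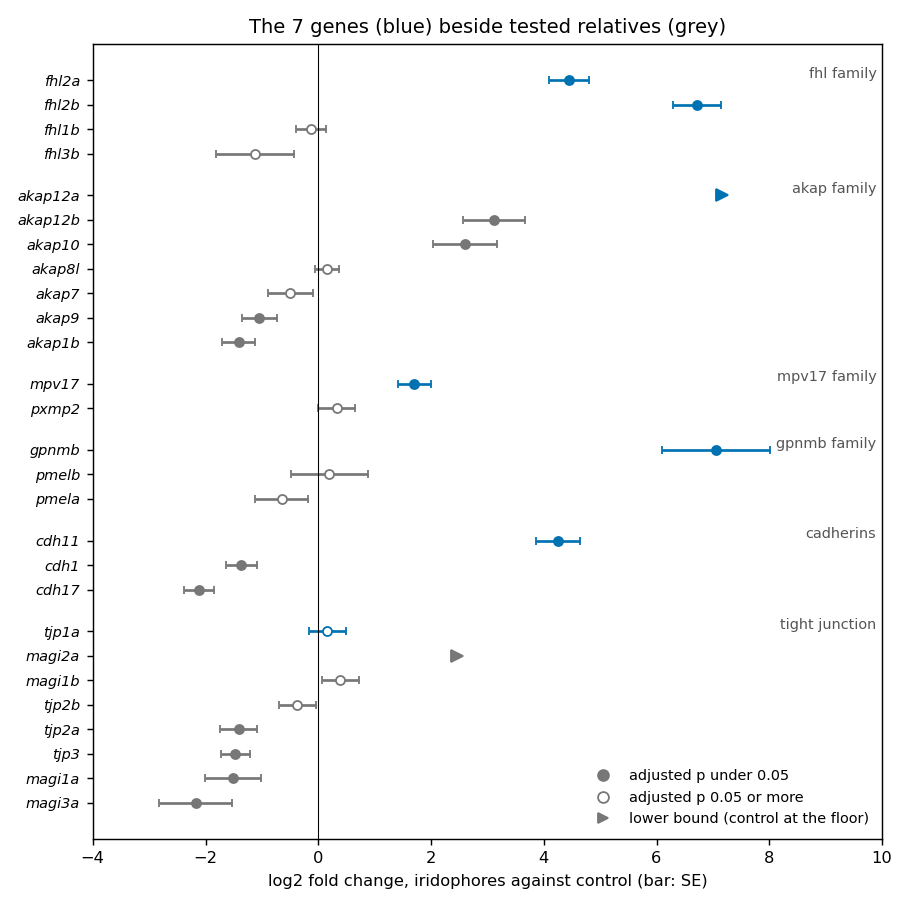
Log2 fold change of iridophores against control (horizontal axis, bars are SE) for the 7 genes in blue and their tested relatives in grey, where filled circles have an adjusted p under 0.05, open circles do not, and triangles are lower bounds for genes whose control libraries were all at or under 3 counts. In each family except the tight junction scaffolds the gene of the set lies to the right of its relatives.

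The glycoprotein gene gpnmb was higher in iridophores by a large and uneven amount. Gpnmb is a membrane glycoprotein of lysosomes and melanosomes, related to the melanosome protein Pmel, and in mammals it is also abundant in macrophages and osteoclasts. Its level was 174, 996 and 1646 CPM in iridophore replicates 1, 2 and 3, and 1.196, 7.14 and 14.4 CPM in the control. The groups stood far apart, yet replicate 1 was the lowest and replicate 3 the highest in both. The log2 fold change was 7.05 (SE 0.95, 95% interval 4.93 to 9.18, adjusted p by edgeR 0.0003457). Leaving out iridophore replicate 3 gave 6.37, leaving out control replicate 1 gave 6.43 and leaving out control replicate 3 gave 8.01, and the gene was called in each of these fits.

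Within the iridophore libraries, the SD of log2 CPM was 1.70 for gpnmb, and 98.6% of tested genes had a smaller one. The median over all tested genes was 0.43. Of the 7 genes, gpnmb thus varied most between iridophore replicates, and the other 6 had SDs of 0.22 to 0.52. The highest iridophore library had 9.46 times the gpnmb level of the lowest, while the same ratio for the reporter gene pnp4a was 1.51. In the control the SD of gpnmb was 1.37, larger than for 99.3% of genes.

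Markers of other cells that express gpnmb or its relatives also differed between replicates. The 8 analysed of 16 listed leukocyte markers summed to 33.0, 87.1 and 71.4 CPM in iridophore replicates 1, 2 and 3 and to 8.67, 26.8 and 23.6 CPM in the control. Of them 2 were tested and 1 was higher: coro1a, an actin-binding protein of leukocytes, was at least 16.7-fold higher (adjusted p by edgeR 0.0004901). The macrophage genes marco, mfap4 and mpeg1.2 had 2 to 17 counts in each iridophore library and 1 to 8 in each control library, and were not tested. In CPM, marco and mpeg1.2 were higher in every iridophore library than in every control library. Their means were 12.2 against 1.75 CPM for marco and 5.67 against 0.668 CPM for mpeg1.2 (iridophores against control). The other 4 analysed leukocyte genes had CPM values that overlapped between the groups, as did mfap4. The neutrophil gene mpx, also not tested, had 1, 0 and 0 counts in iridophores and 5, 13 and 16 in the control, and the protease gene ctsk had a log2 fold change of 0.59 (SE 0.73, adjusted p by edgeR 0.5488). The remaining genes, grna and cd74b, had 1 to 6 counts per iridophore library and 1 to 11 per control library. The 4 analysed of 8 melanophore markers summed to 71.4, 148 and 109 CPM in iridophores and 62.5, 216 and 269 CPM in the control, and the 3 analysed of 7 markers of retinal pigment epithelium to 119, 234 and 251 CPM and 97.2, 264 and 246 CPM. All 3 sums were lowest in replicate 1 of each group, as gpnmb was. This was not particular to these cells. The reporter gene pnp4a and the summed muscle, fibroblast and xanthophore markers were also lowest in replicate 1 of each group. The epidermal and endothelial sums were not. The part of these cells in the gpnmb values was not tested.

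The Pmel genes were not called in either direction, at 0 of 2 by edgeR, by DESeq2 and at an unadjusted p under 0.05. The levels of pmela were 38.6 ± 8.66 CPM in iridophores against 62.1 ± 37.3 CPM in the control, with a log2 fold change of -0.65 (SE 0.48, adjusted p by edgeR 0.3073), and pmelb gave 0.19 (SE 0.68, adjusted p by edgeR 0.8475). The log2 ratio of gpnmb to pmela counts was 2.53, 4.40 and 5.36 in iridophores and -3.97, -3.27 and -2.69 in the control. The ratio was positive in 3 of 3 iridophore libraries and negative in 3 of 3 control libraries, with a difference of 7.40 (exact permutation p 0.1, adjusted 0.133).

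**Figure D3:**
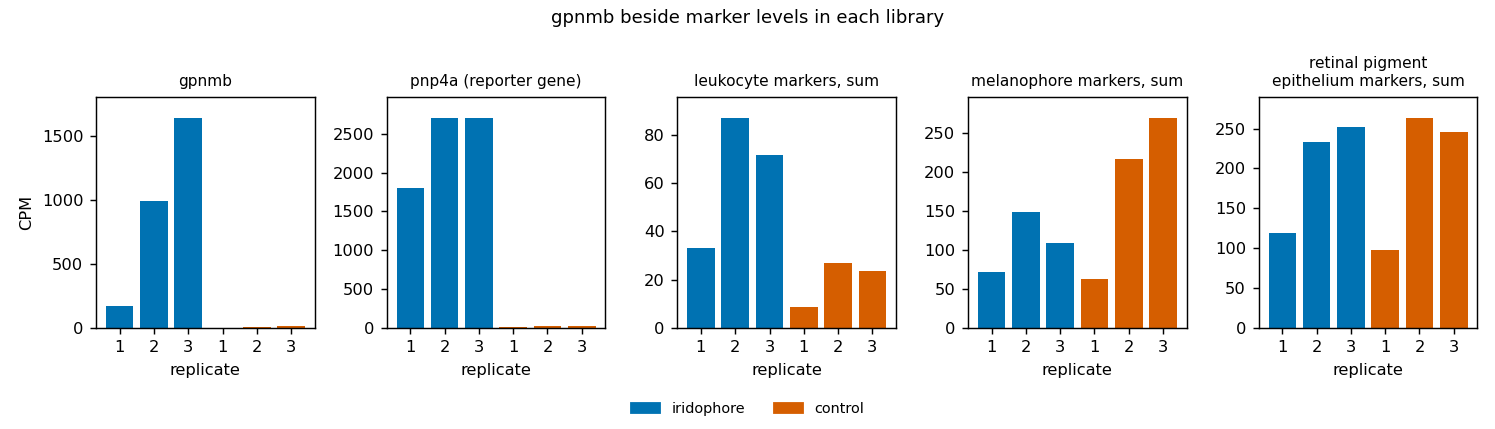
CPM of gpnmb, of the reporter gene pnp4a and of the summed markers of leukocytes, melanophores and retinal pigment epithelium in each of the 3 iridophore (blue) and 3 control (orange) libraries, with a separate vertical axis from 0 in each panel. Replicate 1 has the lowest bar of its group in each panel, and the gpnmb bars of iridophores run from 174 to 1646 CPM.

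The mitochondrial gene mpv17 was also higher in iridophores. Mpv17 is a protein of the inner mitochondrial membrane, and in mammals its loss depletes mitochondrial DNA. The level of mpv17 was 47.6, 97.3 and 59.6 CPM in iridophore replicates 1, 2 and 3 and 22.4, 20.8 and 19.0 CPM in the control. The control libraries lay close together and all iridophore libraries were above them, with replicate 2 the highest. The log2 fold change was 1.70 (SE 0.29, 95% interval 1.06 to 2.35, adjusted p by edgeR 0.001339), or 3.26-fold. Unlike akap12a or fhl2b, mpv17 was well detected in the general cell population, where it had 35 to 75 counts per library and stood at 30.4% of its iridophore level. Of all tested genes, 12.2% had a higher log2 fold change.

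The relative of mpv17 was not called, and the few tested genes linked to mitochondrial DNA upkeep or fusion moved both ways. The peroxisomal relative pxmp2 had a log2 fold change of 0.32 (SE 0.34, 95% interval -0.42 to 1.07, adjusted p by edgeR 0.4738). Of 18 listed genes of mitochondrial DNA maintenance and mitochondrial fusion, only 10 were in the count table. Genes absent from it included polg, twnk and polrmt. Of the 8 tested, 2 were higher and 3 were lower, with a median of 0.19, beside 22.1% higher and 17.8% lower over all tested genes. The mitochondrial transcription factor gene tfam rose by 1.64 (SE 0.47, adjusted p by edgeR 0.01889) and the outer-membrane fusion gene mfn2 by 1.35 (SE 0.43, adjusted p by edgeR 0.02949), although mfn2 was not called by DESeq2 (adjusted p 0.0561). The inner-membrane fusion gene opa1 fell by 1.76 on the log2 scale (SE 0.33, adjusted p by edgeR 0.002268). The succinyl-CoA ligase subunits suclg1 and sucla2 fell by 0.96 (SE 0.22, adjusted p by edgeR 0.006738) and 0.94 (SE 0.25, adjusted p by edgeR 0.01441).

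Among adhesion genes, cdh11 rose while the 2 other tested cadherins fell. Of 19 listed cadherin genes only 3 were in the count table, and cdh2 was among those absent. Cadherin 11 is a calcium-dependent adhesion protein known from mesenchyme, bone and migrating neural crest. It stood at 62.3, 71.1 and 89.98 CPM in iridophore replicates 1, 2 and 3 and at 2.39, 7.14 and 3.08 CPM in the control. The lowest iridophore library was far above the highest control library, which was replicate 2. The log2 fold change was 4.25 (SE 0.38, adjusted p by edgeR 2.727e-05), with 74.5 ± 14.1 CPM in iridophores against 4.20 ± 2.57 CPM in the control (SD, n = 3).

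The epithelial cadherin gene cdh1 fell from 73.1 ± 5.79 to 28.9 ± 10.8 CPM (log2 fold change -1.37, SE 0.27, adjusted p by edgeR 0.003226). The cadherin gene cdh17 fell from 612 ± 26.6 to 143 ± 52.1 CPM (log2 fold change -2.11, SE 0.27, adjusted p by edgeR 0.0002272). The catenins, which tie cadherins to actin, were not called. Their 4 tested genes ctnna1, ctnnb1, ctnnb2 and ctnnd1 had log2 fold changes of 0.06, 0.48, -0.20 and 0.10 (adjusted p by edgeR 0.1045 to 0.8596, 0 called at an unadjusted p under 0.05 and 0 by DESeq2).

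Markers of fibroblasts and skeletal mesenchyme, which can also express cdh11, were not called where they were tested. The skeletal genes sp7, runx2a and runx2b were absent from the count table. Of their 6 tested genes 0 were called in either direction by edgeR, 0 by DESeq2 and 0 at an unadjusted p under 0.05. The summed level of the 9 analysed of 16 listed markers was 251 to 391 CPM in iridophores and 226 to 569 CPM in the control. The collagen gene col1a2 had a log2 fold change of -0.32 (SE 0.33, adjusted p by edgeR 0.4806). The part of these cells in the cdh11 values was not tested. The 11 analysed of 12 epidermal and epithelial markers, which accompany cdh1, summed to 4730 to 5142 CPM in iridophores and 6909 to 7781 CPM in the control. Of the 8 tested, 2 were lower and 0 higher by edgeR, by DESeq2 and at an unadjusted p under 0.05. Over all tested genes 17.8% were called lower and 22.1% higher. The part of epidermal and epithelial cells in the fall of cdh1 was not tested.

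The tight junction scaffold gene tjp1a was not distinguishable between the groups at this depth. Tjp1a is the zebrafish ZO-1 protein, which links membrane junction proteins to actin, and tjp1a is mutated in schachbrett fish. It stood at 10.99, 10.16 and 16.9 CPM in iridophore replicates 1, 2 and 3 and at 13.8, 11.3 and 10.8 CPM in the control. The values overlapped, and iridophore replicates 1 and 2 rested on 6 and 7 counts. The log2 fold change was 0.16 (SE 0.33, 95% interval -0.57 to 0.89, adjusted p by edgeR 0.7257), and it was -0.21 without iridophore replicate 3. The interval spans 0, and its upper bound lies under the log2 fold change of each of the other 6 genes, the smallest of which was 1.70 for mpv17. In the RefSeq annotation of a later assembly (GRCz12tu) tjp1a overlaps the gene apba2b, which had 0 counts in each iridophore library and 3, 1 and 6 in the control. In the same annotation gpnmb overlaps pals2b, and akap12a and cdh11 each overlap a gene with no assigned name. Those genes were not analysed here. Whether the counting used strand is not given in the sources used here.

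Its paralog tjp1b had 1 to 10 counts per library and was not tested. The log2 ratio of tjp1a to tjp1b counts was 1.58 ± 0.51 in iridophores and 1.80 ± 0.80 in the control (SD, n = 3, exact permutation p 0.7). Other scaffolds of tight junctions and cell polarity moved both ways. Of 7 tested besides tjp1a, 4 were lower and 1 was higher, and the median log2 fold change was -1.41. The shares over all tested genes were 17.8% lower and 22.1% higher. The lower ones were tjp2a and tjp3, relatives of tjp1a, with log2 fold changes of -1.41 (SE 0.33, adjusted p by edgeR 0.007164) and -1.47 (SE 0.26, adjusted p by edgeR 0.001748), and magi1a and magi3a, with -1.51 (SE 0.50, adjusted p by edgeR 0.03529) and -2.17 (SE 0.65, adjusted p by edgeR 0.02335). The higher one was magi2a, at least 5.49-fold (adjusted p by edgeR 0.001904), on 5 to 12 counts per iridophore library. The epidermal and epithelial markers described with cdh1 were also lower in sum in every iridophore library, and their part in the lower scaffold genes was not tested. Of the junctional adhesion molecules, f11r.1 rose from 6.75 ± 1.41 to 44.6 ± 10.6 CPM (log2 fold change 2.70, SE 0.30, adjusted p by edgeR 0.0001187) and jam2a fell by 1.65 on the log2 scale (SE 0.32, adjusted p by edgeR 0.002572). The gene jam3b, which has a pigment pattern mutant in zebrafish, had 3 to 19 counts per iridophore library and 1 to 6 per control library and was not tested. In CPM its iridophore libraries were all above the control (mean 9.29 against 1.97), although the closest values were 4.36 and 3.57.

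**Figure D4:**
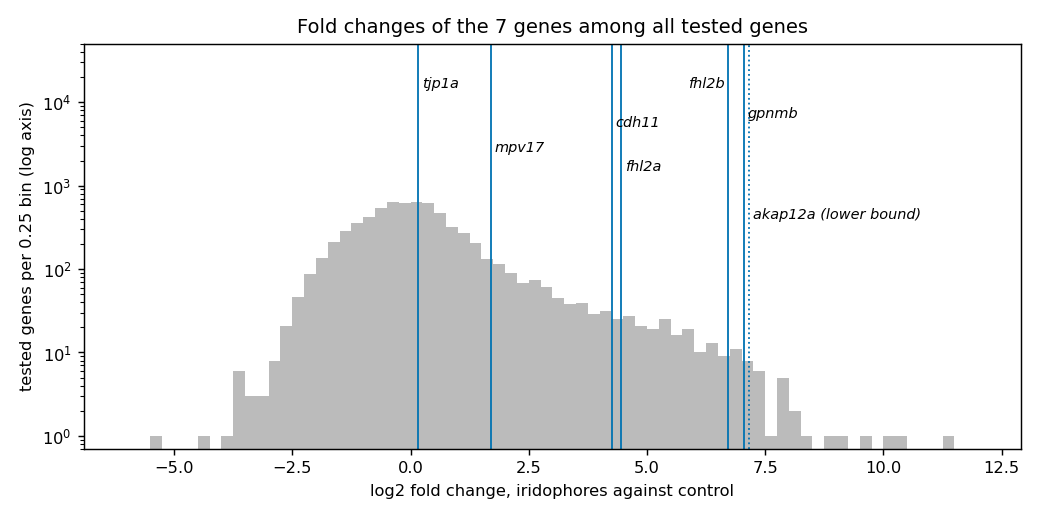
Distribution of log2 fold changes of iridophores against control over the 6849 tested genes (grey, number of genes per bin of 0.25 on a log axis), with the 7 genes as vertical lines and akap12a drawn at its lower bound of 7.17. The line of tjp1a lies near the middle of the distribution, mpv17 at its right shoulder and the other 5 in the right tail.

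Other genes with iridophore mutant phenotypes were mostly higher as well. Of 9 tested, 8 were called higher and 0 lower by edgeR, by DESeq2 and at an unadjusted p under 0.05. Over all tested genes 22.1% were called higher and 17.8% lower. The median log2 fold change of the 9 was 3.76, or 3.34 with alx4a, which had 0 control counts, set to its bound. Genes low in the control, such as tfec, sox10 and alx4a, passed the filter on low counts through their iridophore libraries alone. A gene low in both groups is left out by that filter, so the count and the median lean towards higher genes. The transcription factor genes among the 9 included tfec, which rose from 2.42 ± 1.06 to 103 ± 18.6 CPM. The exception among the tested genes was trim33, a chromatin regulator, with 0.42 (SE 0.25, adjusted p by edgeR 0.2152). Of 19 listed genes only 10 were in the count table, and ltk, ednrba and mitfa were among those absent. The gene bnc2 was in the table but not tested. It had 2 to 4 counts per iridophore library and 5 to 9 per control library, and its CPM values overlapped. The genes of this list too were chosen as known iridophore genes.

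The genes whose profile over the 6 libraries was most like each of the 7 were found by the root-mean-square difference of centred log2 CPM among 5680 named genes. A prior count of 2 was added before the log2. For akap12a the nearest was pnp4a itself (difference 0.34, Pearson r 0.996), followed by pltp and csf1a. For fhl2a they were phgdh, an enzyme of serine synthesis (0.17, r 0.999), tuba8l3 and pald1a, and for fhl2b they were nme4, tspan36 and tmem179b (0.37 to 0.44). For cdh11 they were pdzrn3b (0.14, r 1.00), opn7c and the guanylate synthesis gene gmps. For mpv17 they were dram2b, rab20 and brcc3 (0.10 to 0.14). The nearest to gpnmb were slc45a2, pnp4a and sytl2a, at differences of 0.89 to 0.97. The nearest to tjp1a were fem1c, prkcbp1l and cdipt (0.09 to 0.10). Between members, the closest profiles were those of fhl2a and cdh11 (0.52), and the farthest were those of akap12a and tjp1a (3.67). Because akap12a had 0 counts in the control, its nearest genes and its distances depend on the prior count. All these likenesses are descriptions over 6 libraries that differ in depth and fall into the 2 sorted groups.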

How the data were processed

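Bulk MARS-seq, which tags transcript 3' ends, was run on RNA of sorted cells, per the labels' protocols. The authors deposited raw counts per gene symbol, in whole numbers. The submitters' processing notes name cutadapt, STAR 2.5.2b, HTSeq, DESeq2 1.36.1 and the build danRer11; the annotation and the use of molecular identifiers are not given in the sources used here. Groups came from the sample titles. Genes were filtered with edgeR's defaults (minimum count 10, minimum total 15), leaving 6849 of 11016 symbols and 98.7% of counts, scaled by TMM and fitted with edgeR 4.0.16 (R 4.3.3), with group as the only term and Benjamini-Hochberg adjustment over all 6849. The code was tested on simulated data. SEs are approximate, from dividing each absolute log2 fold change by the root of its F value. Where all control libraries had at most 3 counts, the fold was computed against 3 counts in each library. Alternatives used DESeq2 1.42.0 and limma 3.58.1, other scaling, no filter, a replicate block, the library name ending, and libraries left out. Named relatives were up to 3 called genes per list and direction, paralog partners, and the 3 nearest profiles. Other genes of the lists (fhl1b, fhl3b, pxmp2, pmelb, catenins, tjp2a, jam3b, trim33, bnc2, prkacaa, prkacab, markers) were named after their values were seen. Of 223 listed symbols, 121 were analysed, matched by exact spelling. In the deposited counts the lowest of the highest counts per gene was 6, and 778 symbols end in a numeric suffix. A gene named as absent is therefore not shown to be unexpressed. The 7 genes and the lists were chosen with earlier results of these data known. P-values of the fits set the group difference against the spread between these samples, which the fits estimate partly from all genes together. The 3'-end counts of paralogs with similar ends are uncertain.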

Additional observations from a re-analysis of the deposited data

How the results depend on the processing

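The counts of 6 genes higher and 0 lower among the 7 held under all 14 alternatives, and each of the 6 kept its direction and its call. Across them the log2 fold change ran from 1.39 to 1.93 for mpv17, from 3.89 to 4.73 for cdh11, from 4.11 to 4.80 for fhl2a, from 6.27 to 7.06 for fhl2b and from 6.37 to 8.01 for gpnmb. For tjp1a, which was not called under any of them, leaving out 1 library gave -0.21 to 0.30, negative without iridophore replicate 3. The difference in the log2 ratio of tjp1a to tjp1b ran from -0.59 to 0.20 in the same way, positive without iridophore replicate 2 (0.03) and without control replicate 1 (0.20); the cause was not tested. Upper-quartile factors gave 1315 genes higher and 1514 lower, shifted the median of all tested genes by -0.15, and under them no call among the 7 changed. With the replicate block, 6 of the 7 were again higher and gpnmb gave 6.98 (adjusted p by edgeR 6.728e-11). Deviations of same-numbered libraries correlated at 0.32, 0.07 and 0.17 over genes. Iridophore replicate 2 correlated best with control replicate 3 (0.12), so the numbers were not taken as pairs. Replicate 1 of either group correlated at -0.24 to -0.15 with replicates 2 and 3 of the other group. Replicates 2 and 3 correlated at 0.07 to 0.17 across groups. Deviations were taken from the mean of their own group, so within a group they sum to 0 for each gene. The negative and positive values above therefore follow in part from the 0.32 and are not separate evidence of a split. The pattern runs along the library name ending, which the fit with group alone left out. With the ending as a term, gpnmb gave 6.94 with an SE of 0.31, against an SE of 0.95 without it. The replicate block also called genes that the fit without it did not: slc25a4 and bhlhe40 higher (adjusted p by edgeR 0.03312 and 0.02113), and col1a1b, cmlc1, rpe65a and tyrp1b lower (0.01794, 0.01119, 0.005446 and 0.0006072). For mitochondrial DNA maintenance, DESeq2 called 1 gene higher where edgeR called 2. Genes with few counts, such as tjp1a, tjp1b, akap10, akap12b, magi2a and fhl3b, and the control values of akap12a and fhl2b, are limited by depth.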

Other observations

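Pigment and vessel markers outside the comparisons above moved unevenly. For scale, 22.1% of all tested genes were called higher and 17.8% lower. Of the 3 tested xanthophore markers, gch2, an enzyme of pteridine synthesis, was higher (log2 fold change 2.09, SE 0.58, adjusted p by edgeR 0.0173) and 2 were lower, scarb1 and bco1l, which handle carotenoids (log2 fold changes -1.02 and -1.09). Of the 4 tested melanophore markers 1 was higher, dct (1.37, SE 0.45, adjusted p by edgeR 0.0359), and 0 were lower, with 1 lower at an unadjusted p under 0.05 and 1 by DESeq2. The rest, tyrp1b, tyrp1a and pmela, had log2 fold changes of -1.37, -0.83 and -0.65 (adjusted p by edgeR 0.05621, 0.4074 and 0.3073). The median of the 4 was -0.74, so dct went against the direction of its list. Of the 2 tested retinal pigment epithelium markers 0 were called by edgeR, and 2 passed at an unadjusted p under 0.05 in opposite directions. The log2 fold change was -1.40 for rpe65a and 0.77 for bhlhe40, and DESeq2 called rpe65a lower. The 4 analysed endothelial markers summed to 12.4 to 16.0 CPM in iridophores and 3.59 to 12.3 CPM in the control, and 0 of them passed the filter on low counts. For these genes the values are given without an explanation.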
